A study of Mus musculus with 6 samples.

Results

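The peroxisome proliferator-activated receptors (PPARs) and the retinoid X receptors (RXRs) were compared between brown and white fat of the mouse. The genes were chosen by name: Ppara, Ppard and Pparg, which encode the 3 PPARs, and Rxra, Rxrb and Rxrg, which encode the 3 RXRs. All 11 probe sets whose platform annotation gives 1 of these 6 symbols were taken, out of 34945 probe sets with a single symbol that stand for 18193 genes. Of the 11, 8 reached a present call on 3 or more of the 6 arrays and were tested.

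The samples were interscapular brown fat and epididymal white fat of male C57BL/6 mice aged 10 to 12 weeks, untreated and kept at ambient temperature. Each tissue was dissected from 3 mice and each sample was hybridised to an Affymetrix mouse expression array, on which several short probes make up a probe set, giving 3 arrays per tissue. Since all brown fat came from 1 body site and all white fat from another, the type of fat and the site cannot be told apart. These are RNA measurements of whole tissue, in which a larger number of cells of 1 type and more RNA per cell cannot be told apart.

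PPARs are nuclear receptors that bind fatty acids and their derivatives and, paired with an RXR, switch on genes of lipid metabolism. PPAR alpha is known for genes of fatty acid oxidation, PPAR gamma for the formation and upkeep of fat cells of both kinds, and PPAR delta for oxidative metabolism in many tissues. RXRs bind retinoids and also pair with thyroid hormone, retinoic acid, liver X and Nr4a receptors, so that these receptors share 1 pool of partners.

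A PPAR and an RXR bind together to a direct repeat of the hexamer AGGTCA with 1 base between the copies. The start regions of the receptor genes were searched for it, because some nuclear receptor genes are themselves controlled by nuclear receptors. RefSeq gives 11 start regions for the 6 genes on GRCm38.p6, each reaching from 250 bases before to 50 bases after the start. AGGTCA on either strand was found in 4 of the 11 and in 16.3% of all 32851 start regions. The full repeat on either strand, with any base between the copies, was found in 0 of the 11 and in 13 of all start regions. The start region of Ppara, the receptor gene with the largest difference between the tissues, and the 4 regions with a match are printed below 5′ to 3′ on the + strand, with AGGTCA or its reverse complement in capitals.
Ppara, chr15:85735526-85735825: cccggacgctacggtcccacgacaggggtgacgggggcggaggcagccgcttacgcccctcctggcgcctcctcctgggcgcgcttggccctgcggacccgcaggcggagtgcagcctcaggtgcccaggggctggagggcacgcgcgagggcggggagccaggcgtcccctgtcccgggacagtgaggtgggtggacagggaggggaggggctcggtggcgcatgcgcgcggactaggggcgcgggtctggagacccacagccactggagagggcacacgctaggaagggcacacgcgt
Pparg, chr6:115360894-115361193: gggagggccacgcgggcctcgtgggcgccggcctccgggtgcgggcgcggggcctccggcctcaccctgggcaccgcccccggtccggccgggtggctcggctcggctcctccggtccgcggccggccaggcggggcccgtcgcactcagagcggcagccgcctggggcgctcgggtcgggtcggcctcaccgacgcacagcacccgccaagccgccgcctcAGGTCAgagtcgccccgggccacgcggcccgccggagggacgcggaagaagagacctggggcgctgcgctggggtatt
Pparg, chr6:115362099-115362398: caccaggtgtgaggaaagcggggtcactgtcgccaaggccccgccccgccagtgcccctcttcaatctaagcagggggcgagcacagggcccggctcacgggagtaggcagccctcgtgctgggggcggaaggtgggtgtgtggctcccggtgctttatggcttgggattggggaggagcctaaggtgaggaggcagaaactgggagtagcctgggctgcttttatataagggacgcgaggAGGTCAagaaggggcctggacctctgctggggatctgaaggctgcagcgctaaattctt
Rxra, chr2:27709042-27709341: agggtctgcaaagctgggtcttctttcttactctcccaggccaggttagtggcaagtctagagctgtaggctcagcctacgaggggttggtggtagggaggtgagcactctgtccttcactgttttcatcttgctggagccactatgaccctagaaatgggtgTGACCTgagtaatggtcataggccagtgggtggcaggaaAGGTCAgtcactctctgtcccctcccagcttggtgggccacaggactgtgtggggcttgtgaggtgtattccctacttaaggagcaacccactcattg
Rxrg, chr1:167618015-167618314: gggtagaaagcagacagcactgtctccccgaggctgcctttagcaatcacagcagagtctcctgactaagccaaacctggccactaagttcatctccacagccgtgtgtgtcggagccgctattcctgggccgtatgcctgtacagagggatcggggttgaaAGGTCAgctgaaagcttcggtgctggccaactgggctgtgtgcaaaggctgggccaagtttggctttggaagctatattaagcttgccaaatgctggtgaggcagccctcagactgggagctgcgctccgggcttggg
The matches begin 28 and 9 bases before the start in the Pparg regions, 87 and 48 bases before it in the Rxra region and 88 bases before it in the Rxrg region. The Ppara region holds no match, and 74.7% of its bases are G or C, against a median of 52.7% over all start regions. A match describes these letters only and is not evidence of binding.

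The arrays separated by tissue. Between 35.6% and 37.5% of probe sets were called present on the brown arrays and between 45.2% and 45.8% on the white arrays, and the median deposited signal was 37.6 to 39.4 against 52.1 to 52.5. Signals below are quantile-normalised, on a linear scale, and cannot be compared between probe sets. Ucp1, the uncoupling protein of brown fat, had a signal of 12942 ± 267 (SD, n = 3) in brown fat and was absent on all 3 white arrays. Lep, which encodes the white fat hormone leptin, had 54.2 ± 19.2 in brown and 1743 ± 16.5 in white fat. All 8 brown adipocyte markers were higher in brown fat and all 6 measured white adipocyte markers in white fat. Ucp1, Dio2 and Zic1 were absent on all white arrays and Agt on all brown arrays, so these passed the detection filter through 1 tissue. The lists also hold Ucp1 and Lep, by which the array files were chosen, so these counts are no independent check. The authors' table of the whole series runs opposite to the array files in tissue and was not used for any value. Of all 19819 probe sets tested, 24.6% were higher in brown and 29.9% in white fat at an adjusted p under 0.05.

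Of the 8 tested receptor probe sets, 5 were higher in brown fat, 1 was higher in white fat and 2 were not called, where 54.5% of all tested probe sets were called in either direction. The brown arrays lay entirely above or below the white arrays for 6 of the 8, against 62.4% of all tested probe sets. The 5 higher in brown fat were the 3 of Ppara and those of Rxrb and Rxrg, the 1 higher in white fat was of Rxra, and those of Ppard and Pparg were not called. A pair of the Ppara probe sets passed the detection filter through the brown arrays, which favours a difference, so these counts support nothing by themselves.

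**Figure D1:**
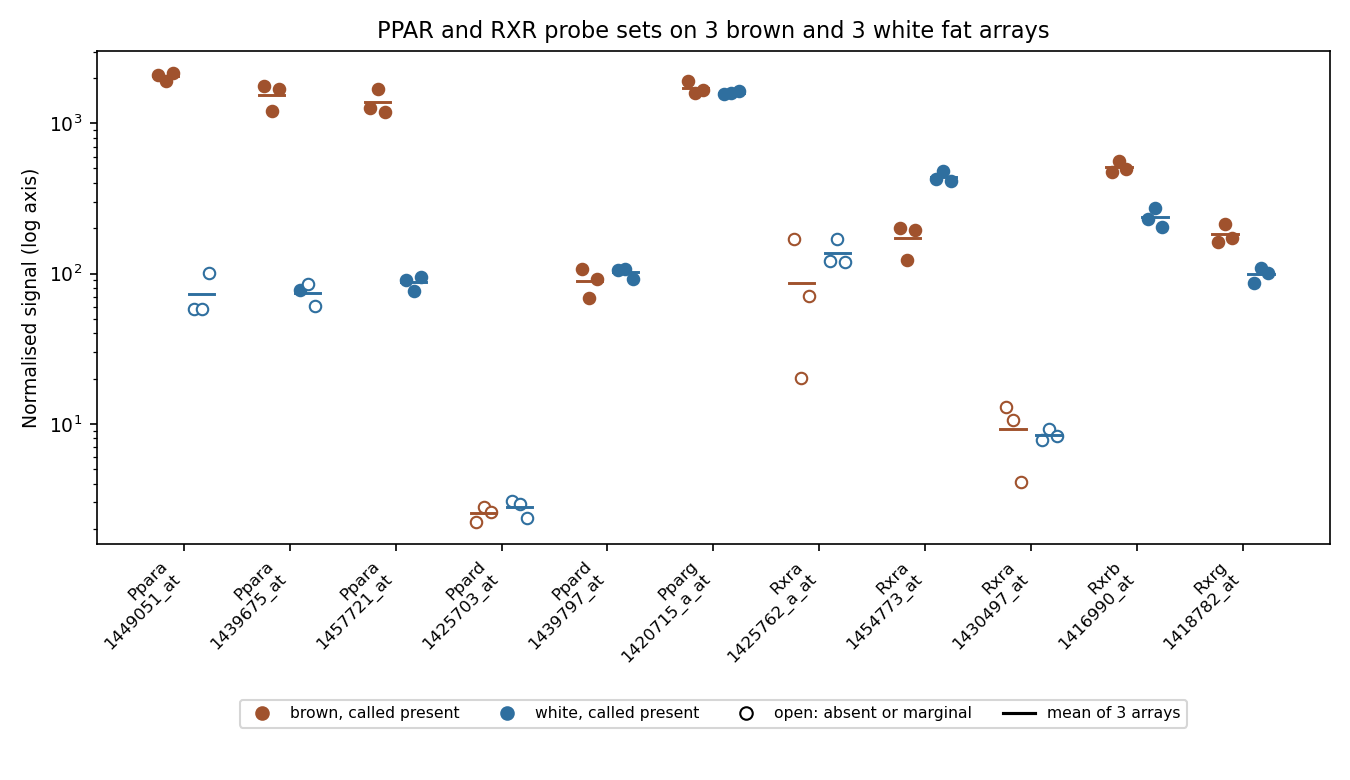
Normalised signal (log axis) of the 11 probe sets of the 6 receptor genes on the 3 brown (brown points) and 3 white (blue points) arrays. Filled points were called present, open points absent or marginal, and lines are means. All 3 Ppara probe sets lie between 1183 and 2152 on the brown arrays and between 57.9 and 102 on the white arrays, whereas the Pparg arrays of the tissues overlap. Levels of different probe sets are not comparable.

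Ppara, the receptor of fatty acid oxidation, was the most different of the receptors. Probe set 1449051_at read 2102, 1914 and 2152 on the brown arrays and 58.4, 57.9 and 102 on the white arrays. None of the white arrays was called present and 1 was called marginal, so the white signal is near background and the measured log2 difference of 4.87 (adjusted p = 2.51e-08) does not fix the size of the difference.
The other Ppara probe sets gave the same direction. Probe set 1439675_at read 1760, 1208 and 1677 in brown and 78.1, 85.5 and 60.6 in white fat, where 1 array was called present, a measured log2 difference of 4.37 (SE 0.17, adjusted p = 2.11e-08). Probe set 1457721_at was present on all 6 arrays and read 1253, 1687 and 1183 in brown against 90.8, 76.0 and 95.4 in white fat. The measured log2 difference was 3.96, 15.6-fold (SE 0.15, 95% interval 3.63 to 4.30, adjusted p = 1.69e-08). Its detection p-values on the white arrays were 0.0239, 0.0376 and 0.0186, so this white signal is near background too and the fold is not secure. With 64 signal units added before the logarithm the 3 differences were 3.97, 3.53 and 3.23.

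Pparg, whose product drives the formation of fat cells, had nearly the same signal in both tissues. Its only probe set, 1420715_a_at, read 1920, 1599 and 1654 on the brown arrays and 1572, 1580 and 1627 on the white arrays, with means of 1724 ± 172 and 1593 ± 29.5 (SD, n = 3). The ranges overlap. The log2 difference was 0.11 (SE 0.08, 95% interval -0.06 to 0.28, adjusted p = 0.247), an interval that leaves room for a small difference either way. With the deposited scaling it was -0.13 (adjusted p = 0.147), and with median centring of the arrays it was 0.32 (adjusted p = 0.00663), so its direction and its call depend on the scaling. The probe set is of the kind that reads alternative transcripts of 1 gene, and the gamma 1 and gamma 2 mRNAs were not told apart. Of 10264 genes tested with 1 probe set each, 88.0% had a difference of larger size.

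Ppard, which encodes PPAR delta, was not called either. Probe set 1439797_at read 107, 68.5 and 91.5 in brown and 106, 106 and 92.4 in white fat. Its detection p-values on the brown arrays were 0.0142, 0.0376 and 0.0461, so the brown signal is near background and the comparison is weak. The tissues overlap and brown array 2 lay lowest. That array also had the lowest Rxra signal and the highest Rxrg signal of the brown arrays, and its ratio of 3′ to 5′ actin signal, a sign of RNA quality, was 2.24 against 1.43 and 1.36 on the other brown arrays and 1.19 to 1.73 on the white arrays. Without brown replicate 2, the log2 differences were -0.04 for Ppard, -1.14 for Rxra and 0.76 for Rxrg. The log2 difference was -0.21 (SE 0.20, 95% interval -0.65 to 0.23, adjusted p = 0.386). With the deposited scaling the signal was called higher in white fat, at -0.75 (adjusted p = 0.00601), and with spike-in scaling at -0.77 (adjusted p = 0.00876). The other Ppard probe set, 1425703_at, was absent on all 6 arrays, with signals from 2.23 to 3.07, and gives no level. A further probe set that also carries another gene's symbol was left out.

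Rxra was the receptor gene higher in white fat. Probe set 1454773_at read 200, 122 and 196 in brown and 428, 481 and 410 in white fat, and every white array was above every brown array. The signal was 2.60-fold higher in white fat, a log2 difference of -1.38 (SE 0.18, 95% interval -1.79 to -0.97, adjusted p = 0.000123). There were 976 genes with a larger white difference. The other Rxra probe sets, 1425762_a_at and 1430497_at, were absent on all 6 arrays and give no level. RXR alpha is made by macrophages and many other cells. All 10 macrophage markers were higher in white fat, with summed signals of 2919 to 3428 in brown and 18779 to 19568 in white fat. All 7 mesothelial markers were also higher there. Of these, 4, Msln, Upk3b, Krt19 and Krt8, were absent on all brown arrays and passed the detection filter through the white arrays. Of 8 endothelial markers, 5 were higher in white fat and 0 in brown fat. Of 7 hepatocyte markers, 2 were tested and 2 were higher in white fat. Over all genes tested, 32.7% were higher in white fat. Whether these cells carry part of the Rxra difference was not tested.

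Rxrb and Rxrg were both higher in brown fat. Rxrb, which encodes the widely expressed RXR beta, read 473, 560 and 495 in brown and 231, 272 and 205 in white fat on probe set 1416990_at. The log2 difference was 1.12, 2.17-fold (SE 0.12, 95% interval 0.84 to 1.39, adjusted p = 3.74e-05), with no overlap between the tissues.
Rxrg, which encodes RXR gamma, known from muscle and brain, read 162, 213 and 172 in brown and 86.2, 109 and 101 in white fat on probe set 1418782_at. The log2 difference was 0.88, 1.84-fold (SE 0.16, 95% interval 0.52 to 1.24, adjusted p = 0.00111), again with no overlap. The detection p-values of the white arrays were 0.0303, 0.0303 and 0.00586, so part of the white signal is near background. With 64 signal units added before the logarithm the difference was 0.59 (adjusted p = 0.000771). Rxrg was not called with the deposited scaling, at 0.34 (adjusted p = 0.0885), or with spike-in scaling, at 0.33 (adjusted p = 0.128). Skeletal muscle lies against interscapular fat, and of 15 muscle markers 4 were tested, of which 3 were higher in brown fat and 0 in white fat. Over all genes tested, 28.2% were higher in brown fat. The signals summed over the 15 were 1602 to 2252 in brown and 823 to 952 in white fat. Brown array 2 had the highest sum and the highest Rxrg signal. That array also had the highest Rxrb signal, 560, and the highest ratio of 3′ to 5′ actin signal, 2.24. Among the muscle markers, 8 were absent on all brown arrays and 11 on all white arrays. Ckm, Mylpf and Tnnt3 were absent on all arrays of both tissues. Myh4, Myh1 and Atp2a1 were absent on all white arrays but not on all brown arrays. The part of muscle RNA in the Rxrg difference was not tested.

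**Figure D2:**
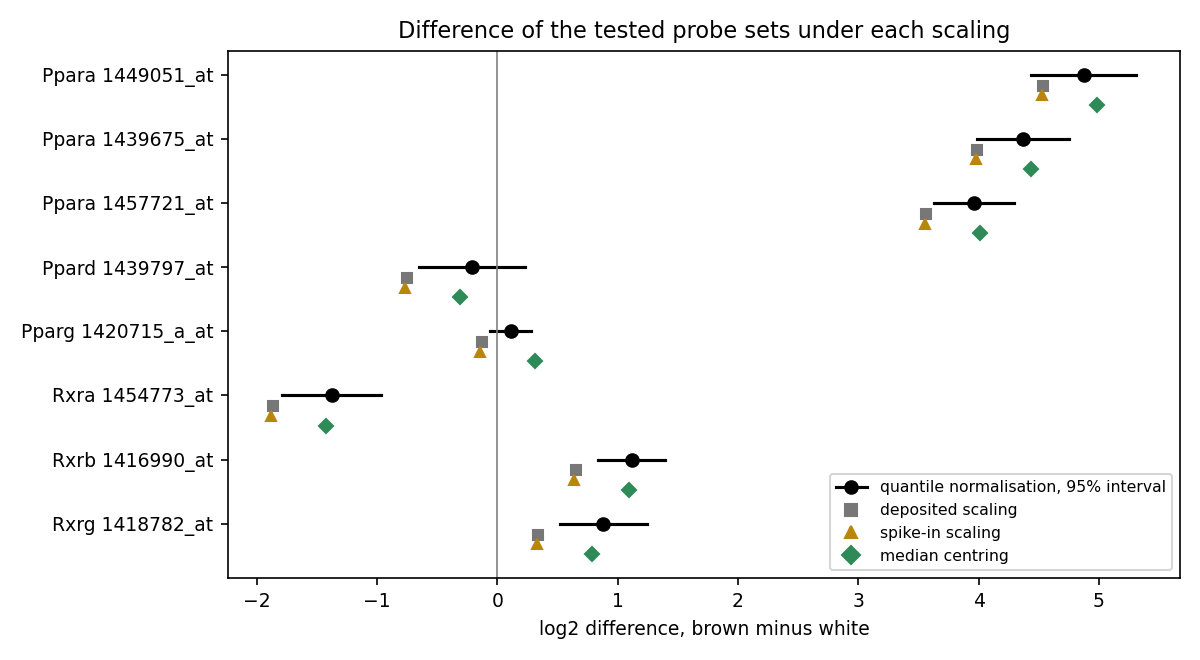
Log2 difference of signal, brown minus white, of the 8 tested probe sets. Black points with bars are the quantile-normalised estimates with 95% intervals, and the squares, triangles and diamonds are the estimates under the deposited scaling, spike-in scaling and median centring. Ppara and Rxrb stay above 0 and Rxra below 0 in all 4, while Pparg moves from -0.14 to 0.32.

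The deposited and spike-in scalings lowered the whole distribution: over the 19819 tested probe sets the median log2 difference moved from -0.06 to -0.53 with the former and to -0.54 with the latter. Relative to that median, Pparg at -0.13 and -0.14 lay above it and Ppard at -0.75 and -0.77 below it under both. The differences of Ppara were 3.55 to 4.54, of Rxrb 0.65 and 0.64 and of Rxra -1.87 and -1.88 under these 2 scalings.

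A single scaling factor of an array cancels in the ratio between 2 receptors on that array. The ratios were taken after quantile normalisation, which changes signals according to their rank and does not cancel. They are therefore not free of the normalisation. Of the 15 pairs of receptor genes, the brown and white arrays did not overlap for 14, where 68.4% of all pairs of the 10264 tested genes did not overlap. Ppara is in 5 of the 15. The brightest Ppara probe set, 1449051_at, was used in the pairs and had no present call in white fat, so the size of its ratios is not fixed. With 1457721_at, present on all 6 arrays and put in its place after seeing the data, the Ppara signal relative to Pparg was higher in brown than in white fat by 3.85 on the log2 scale (SE 0.23), against 4.76 with 1449051_at. Relative to Rxra it was higher by 5.34 (SE 0.42), against 6.25. The white signal of 1457721_at is also near background, so these sizes are not fixed either.
Among the RXRs, the ratio of Rxra to Rxrb was lower in brown fat, with a difference of -2.49 (SE 0.31), and so was that of Rxra to Rxrg, at -2.26 (SE 0.36). The ratio of Rxrb to Rxrg differed by 0.24 (SE 0.13) with overlapping arrays. Pparg relative to Rxra was higher in brown fat by 1.49, and relative to Rxrb and Rxrg its difference was -1.01 and -0.77. The 2-sided exact permutation test over 3 against 3 arrays cannot go below p = 0.1, which is what the 14 pairs gave (0.107 after adjustment over the 15 pairs), so none could pass 0.05. Unequal change is all that these ratios show.

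**Figure D3:**
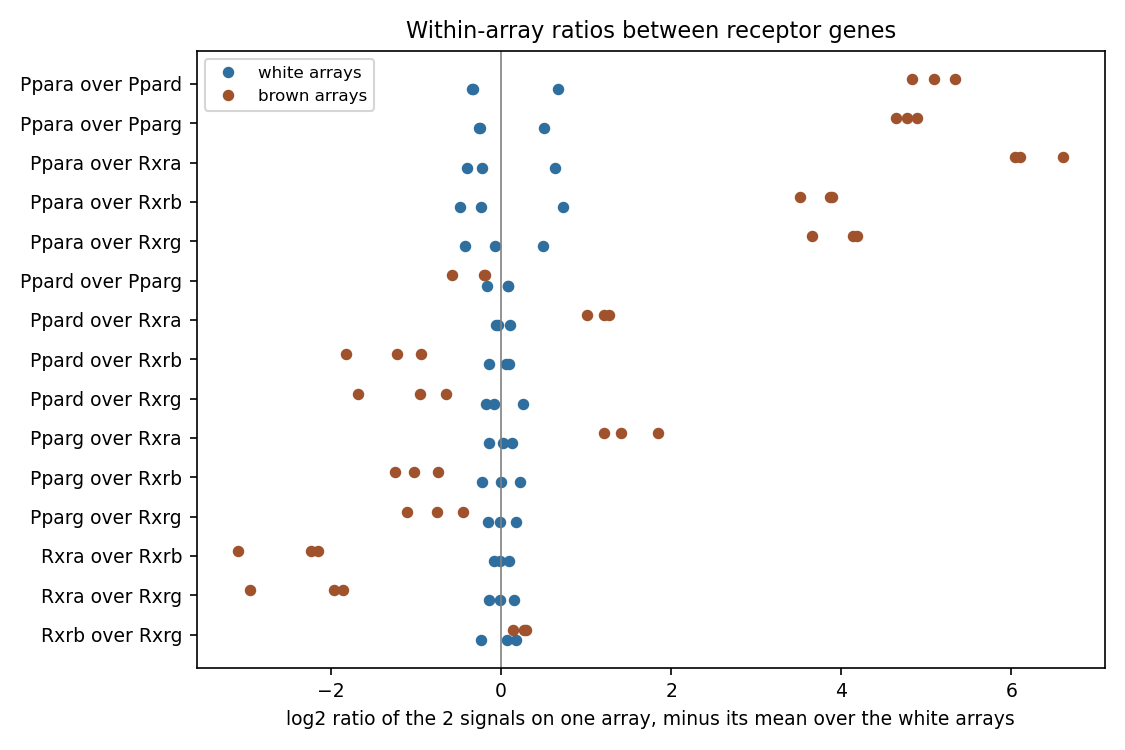
Log2 ratio of 2 quantile-normalised receptor signals on each array, minus the mean of that ratio over the white arrays, for the 15 pairs. Brown points are brown arrays and blue points white arrays. Ppara is read by 1449051_at, which had no present call on the white arrays. The Ppara ratios to the other 5 genes lie at the right, those of Rxra to Rxrb and Rxrg at the left, and only Rxrb over Rxrg overlaps.

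The genes most like each receptor were sought by the Euclidean distance between log2 profiles over the 6 arrays, each centred on its own mean, among 10264 genes. For Ppara these were S100b (distance 0.352), Acot11 (0.393) and 9130214F15Rik (0.754), for Rxra Rassf8 (0.144), Emp2 (0.189) and Fmnl2 (0.237), and for Pparg Helz2 (0.0778), Chpt1 (0.0782) and Adhfe1 (0.0948). For Rxrb they were Kmt5a (0.190), Wipi2 (0.199) and Nat9 (0.209), for Rxrg Nubpl (0.186), Adck2 (0.196) and Ssbp1 (0.198), and for Ppard Btbd19 (0.116), Trim30a (0.139) and St3gal1 (0.150). Helz2, the nearest to Pparg, is on the list of PPAR coactivators, but was not called either (0.10, adjusted p = 0.522). Such distances mostly record the size of the difference between the tissues.

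The other genes of the pathway were read from lists, beside 28.2% of all 10264 genes higher in brown and 32.7% higher in white fat (61% in either direction) and a median log2 difference of -0.04 over all genes. Of 13 other receptors that pair with RXR, 7 were tested, of which 4 were higher in brown fat, 0 in white fat and 3 were not called, with a median of 0.55. Nr4a1, an immediate early orphan receptor, had 3077 ± 396 in brown and 166 ± 10.5 in white fat, a log2 difference of 4.20 (adjusted p = 1.11e-09). Its relative Nr4a2, present on 1 white array, differed by 3.65 (2.80 with the mean of its probe sets), Rarb, a retinoic acid receptor, by 2.42 and Thra, a thyroid hormone receptor, by 0.55. The call of Thra was lost with the deposited scaling, at 0.19, and with spike-in scaling, at 0.18 (adjusted p = 0.279). It was also lost with the mean of its probe sets, at 0.20 (adjusted p = 0.0664). Nr1h3, the liver X receptor alpha, was not called, at 0.29 (adjusted p = 0.0551), nor was Rarg, at -0.06, which was absent on all brown arrays. Nr1h3 was called without white replicate 2 (0.36, adjusted p = 0.0458) and with the mean of its probe sets (0.29, adjusted p = 0.0413), and Rarg was called higher in white fat with the deposited scaling, at -0.57.

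Of 14 coactivators, proteins that PPARs recruit to activate genes, all 14 were tested, 3 were higher in brown fat and 6 in white fat, with a median of -0.22. With the deposited scaling 10 were higher in white fat. The 3 were Ppargc1b, at 3167 ± 68.3 against 528 ± 9.07, Ppargc1a, at 628 ± 73.5 against 112 ± 20.0, and Prdm16, at 302 ± 13.7 against 58.5 ± 9.48, with log2 differences of 2.58, 2.50 and 2.38. Ppargc1a and Ppargc1b encode the PGC-1 coactivators of mitochondrial genes, and Prdm16 a regulator of brown fat identity. With the mean of its probe sets Prdm16 differed by 1.86. Those higher in white fat had small differences, from -0.53 for the acetyltransferase Crebbp to -0.42 for Ep300. The calls of Ncoa6 and Ncoa3 were lost without white replicate 3 (adjusted p = 0.0634) and without white replicate 1 (adjusted p = 0.0547). With the mean of probe sets per gene the calls of Ncoa1 (-0.25, adjusted p = 0.142) and Ncoa2 (-0.36, adjusted p = 0.0584) were lost, leaving 4 higher in white fat. Carm1, at 0.03, and Med1, at 0.44 (adjusted p = 0.0598), were not called. Med1 was called without white replicate 1, at 0.66, and Carm1 was higher in white fat with the deposited scaling, at -0.36 (adjusted p = 0.00586).

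Of 9 corepressors, which silence receptor targets, 7 were tested, 1 was higher in brown fat and 3 in white fat, with a median of -0.06. With the deposited scaling these counts were 0 and 5. Nrip1, known as RIP140 and as a repressor of oxidative genes in fat, had 242 ± 20.0 in brown and 1502 ± 52.5 in white fat, a log2 difference of -2.63 (adjusted p = 5.71e-09), or -1.69 with the mean of its probe sets. Tbl1x differed by -1.30 and Asxl1 by -0.97, or by -1.04 and -0.52 with the mean of their probe sets. Tbl1xr1, the 1 higher in brown fat, differed by 0.34 (adjusted p = 0.0312), was -0.11 with the deposited scaling, and lost its call without brown replicate 2 or 3 and without white replicate 2 or 3 (adjusted p from 0.0572 to 0.117). Hdac3 and Sirt1 were not called, but were higher in white fat with the deposited scaling, at -0.44 and -0.56.

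Lipid binding proteins bring fatty acids to the receptors. Of 8 listed, 4 were tested, 1 was higher in brown and 1 in white fat, with a median of -0.01. Fabp3 had 3872 ± 220 in brown and 26.3 ± 14.8 in white fat, where 1 array was called present, a measured log2 difference of 7.43. It was 6.84 without white replicate 3 and 4.63 with the mean of its probe sets. Fabp5 was higher in white fat, at -0.79. Fabp4, the main carrier of fat cells, had 13686 ± 76.8 and 13981 ± 294 and was not called on its brightest probe set, at -0.03 (adjusted p = 0.453). These signals are at the top of the scale, where normalised values of different arrays tie. With the mean of its probe sets Fabp4 was higher in white fat, at -0.83 (adjusted p = 3.07e-07), and with median centring higher in brown fat, at 0.35.

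Of 29 listed targets of PPAR alpha and genes of fatty acid oxidation, 23 were tested, 18 were higher in brown fat, 4 in white fat and 1 was not called, with a median of 1.59. The 18 include Ucp1, at a measured 9.78, which was absent on all white arrays and by which the array files were chosen. Pdk4, a kinase that turns off glucose oxidation, had 6994 ± 290 in brown and 310 ± 53.8 in white fat (log2 difference 4.51). The oxidation enzymes Acaa2, Acadvl and Acadl differed by 3.42, 3.16 and 2.69. Cpt1a, the liver form of the enzyme that brings fatty acids into mitochondria, was higher in white fat, at 172 ± 28.3 against 739 ± 81.4 (log2 difference -2.12), and so were Cyp4b1 (368 ± 61.5 against 732 ± 37.1), Vnn1 (log2 difference -0.81, or -1.49 with the mean of its probe sets) and Angptl4 (-0.40). The call of Angptl4 was lost with median centring, at -0.025 (adjusted p = 0.778). Pex11a, of peroxisome division, was not called, at 0.19 (adjusted p = 0.0812). It was called higher in brown fat with the mean of its probe sets (0.44, adjusted p = 0.000613), with median centring (0.25, adjusted p = 0.0287) and without brown replicate 2 (0.25, adjusted p = 0.0271). The muscle-type Cpt1b was among the 6 listed genes that were not tested. Only 25 of the 29 listed genes had a probe set with a single symbol, so an untested gene is not thereby undetected.

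Of 30 listed adipocyte targets of PPAR gamma, 25 were tested, 8 were higher in brown fat, 11 in white fat and 6 were not called, with a median of -0.06. The 11 include Lep, by which the array files were also chosen. Higher in brown fat was Cidea, a lipid droplet protein, at a measured 8.28 with 1 white array called present (7.59 without white replicate 2). Pdk4, which is on both target lists, was higher there at 4.51. So were Gpd1 at 2.16, the droplet protein gene Plin2 at 1.02, and Slc2a4, the insulin-regulated glucose transporter, at 1.02. Higher in white fat were the hormone genes Lep, at -5.08, and Retn, at -3.58, the growth factor gene Fgf1, at -3.11 (-2.48 with the mean of its probe sets), and the droplet protein genes Plin4, at -1.83, and Cidec, at -1.42. Fabp4 and Scd1 were not called on their brightest probe sets. With median centring the counts were 14 higher in brown and 7 in white fat.

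**Figure D4:**
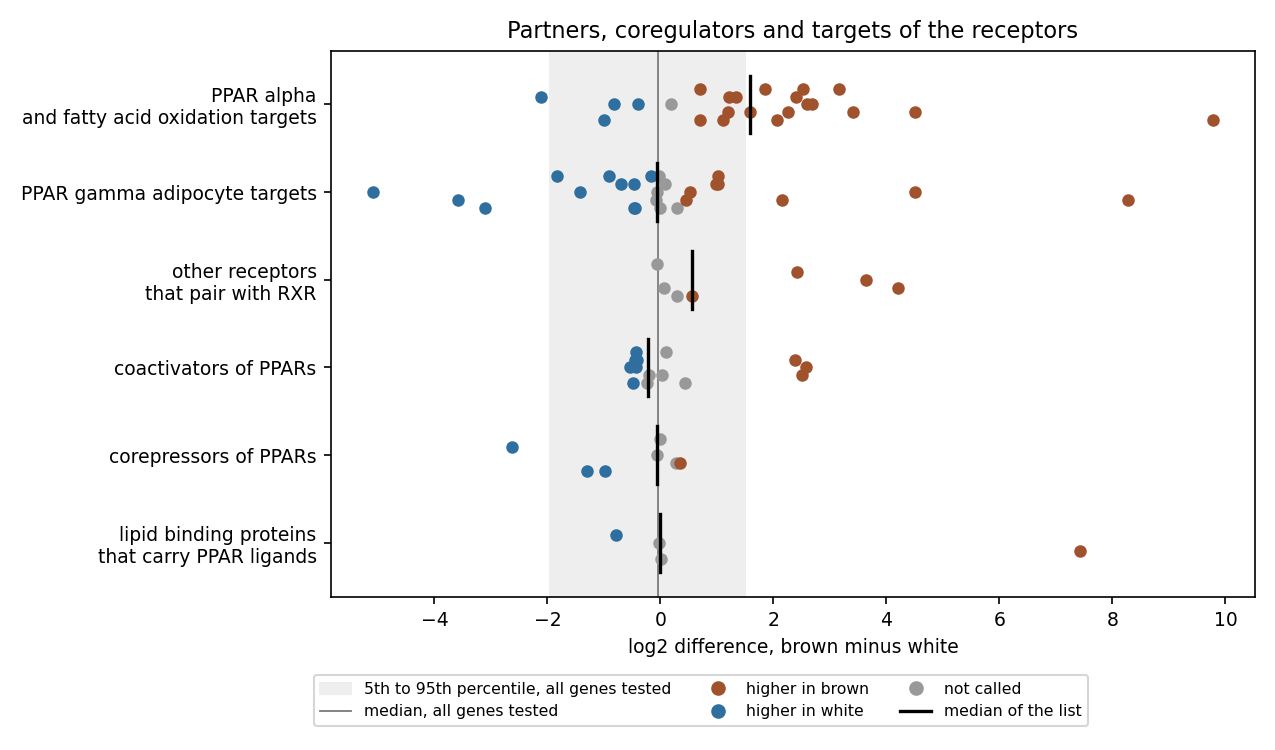
Log2 difference, brown minus white, of each tested gene in 6 lists of partners, coregulators, ligand carriers and targets. Brown, blue and grey points were higher in brown fat, higher in white fat and not called, black bars are list medians, and the grey band spans the 5th to 95th percentile of all tested genes. The PPAR alpha list has a median of 1.59 and the PPAR gamma list one of -0.06.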

How the data were processed

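Total RNA of each sample was labelled with biotin and hybridised to 1 array, per the labels. Per the file headers, the authors deposited 3 quantities per probe set, namely a linear signal intensity, the detection p-value and the present, marginal or absent call. The labels and headers used here name neither the software that made them nor its scaling. The authors' whole-series table of signal intensities was not used: each of its columns correlated best with an array of the other tissue (r = 0.870, 0.874 and 0.873 for the columns named brown, against 0.794, 0.788 and 0.791 with their own arrays). The array files were kept because Ucp1 and Lep run there in their known directions, which are therefore no independent check.

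The 64 control probe sets were left out and 1 signal of 0 was set to 0.1. Signals were quantile-normalised and tested on the log2 scale with limma 3.58.1 (lmFit and eBayes with trend) in R 4.3.3. Tests covered the 19819 probe sets with a present call on 3 or more arrays, or for gene lists the brightest of them per gene (10264 genes), with Benjamini-Hochberg adjustment over all of them and a threshold of 0.05. The code was tested on simulated data. Gene symbols came from the platform annotation, and start regions from RefSeq on GRCm38.p6. Alternatives were the scaling, detection filter, added signal, variance prior, replicate block, probe set per gene and each replicate left out. A further one, the Ppara probe set present on all 6 arrays in the ratios, was chosen after seeing the data.

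The receptors, the 6 gene lists and the 7 marker lists were chosen with earlier results of these data known, and no list is independent evidence. Named were all receptor probe sets, and of each list up to 5 called genes per direction with the largest difference and up to 2 not called genes with the highest signal. Ucp1 and Lep were named as the genes by which the array files were chosen, and the 3 genes nearest to each receptor were named. Ep300 was named after its value was seen. Array number limits the precision. The series' design text calls the arrays biological replicates.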

Additional observations from a re-analysis of the deposited data

How the results depend on the processing

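All 3 Ppara probe sets, Rxra and Rxrb kept their direction and call in every setting that tested them. Present on all 6 arrays left 3 receptor probe sets higher in brown fat and 3944 of all probe sets higher in white fat. The deposited scaling gave 2535 higher in brown and 10785 in white fat over all probe sets and spike-in scaling 2278 and 10340. Under both, 2 receptor probe sets, 1 other RXR partner, 10 coactivators and 5 corepressors were higher in white fat, and 0 corepressors in brown fat. Corepressors higher in brown fat also numbered 0 without the variance trend and with the mean of probe sets per gene, and 0 to 1 with 1 replicate left out. With median centring, PPAR gamma targets numbered 14 higher in brown and 7 in white fat, and 3 ligand carriers were higher in brown fat, against 2 without a detection filter and 0 when present on all 6 arrays. The mean of probe sets gave 2 carriers higher in white fat. Signs turned with the deposited and spike-in scalings for Pparg (-0.13, -0.14), Carm1 (-0.36, -0.38), Med1 (-0.0757, -0.0875), Nr1h3 (-0.21, -0.22), Pex11a (-0.19, -0.20) and Tbl1xr1 (-0.11, -0.13). They turned with median centring for Fabp4 (0.35), Hdac3 (0.00863) and Scd1 (0.34), and with the mean of probe sets for Dbi (-0.0169), Scd1 (0.37) and Tbl1xr1 (-0.0912). Leaving out 1 replicate, the ranges crossed 0 for Carm1 (-0.0315 to 0.10), Dbi (-0.00302 to 0.0267), Hdac3 (-0.14 to 0.0143), Rarg (-0.14 to 0.0268) and Sirt1 (-0.0855 to 0.0266). The calls over all probe sets then ranged from 4383 to 4741 for brown and from 5172 to 5856 for white fat. The causes were not tested.

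The replicate numbers are not stated to mark 1 mouse, and same-numbered arrays did not deviate together (r = 0.0172, -0.0138 and -0.0460). With the number as a replicate block, the calls were 4706 for brown and 5762 for white fat, and the receptor counts were 5 and 1, with no receptor call changed.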
